A study of Gallus gallus with 4 samples.

Results

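The proteasome genes were followed on Affymetrix chicken arrays of PR9692, a sarcoma-derived cell line whose strain is given as CC.R1. Members were all probe sets whose platform gene symbol begins with PSMA, PSMB, PSMC, PSMD, PSME, PSMF or PSMG and a digit, whatever their values. This rule found 63 of the 38535 probe sets of the table, and 37 of the 13009 genes named there by a probe set of their own. Of the 63, 57 carried the symbol of 1 of 36 proteasome genes, 5 were annotated to a proteasome gene and a second gene together and are not named, and 1 belonged to PSMC3IP. PSMC3IP matches by its name only, since it codes for a partner of PSMC3 that acts in meiotic recombination. The cells were stably transfected with a control short hairpin RNA (shRNA) or with an shRNA against HOPX, a small homeodomain protein, and both forms were grown in the same medium. Each form was measured on 2 arrays, 4 in all, which the labels call biological replicates. Per the design text the control cells are metastatic and the anti-HOPX cells are not. The labels do not say whether a form was a clone or a pool, or whether its arrays came from separate cultures, so p-values measure only the spread between these arrays.

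The proteasome degrades proteins tagged with ubiquitin. Its core particle is a barrel of outer alpha rings (PSMA genes), which gate the entrance, and inner beta rings (PSMB genes), which hold the proteolytic sites. A cap binds to the barrel: its ATPases (PSMC genes) unfold the substrate, and its scaffold and lid (most PSMD genes) bind ubiquitin receptors and remove the ubiquitin chain. PSME proteins are alternative activators, PSMF1 is an inhibitor of the core, and the PSMG proteins are chaperones that help to assemble it. Since the subunits are needed in fixed proportions, cells commonly regulate their genes together, through the transcription factor NFE2L1 among others.

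All levels are log2 GCRMA values. A difference is the anti-HOPX mean minus the control mean, so that 1 unit is a 2-fold change. HOPX itself read 3.23 and 3.72 in control cells and 3.21 and 3.54 in anti-HOPX cells at its brighter probe set. These are low values in both forms, so HOPX gave no check of the labels. Of 7 mesenchymal markers 6 had a mean of at least 4, with VIM and FN1 at 14.90 or more on every array. COL1A2 had a mean of 3.68 and was not tested. It read 4.16 and 5.36 in control against 2.79 and 2.39 in anti-HOPX cells. COL1A1, a collagen chain, read 11.16 and 11.11 in control cells against 12.97 and 12.76 in the other form. It rose by 1.73 (adjusted p of limma 0.0020), and no other tested marker passed. The summed log2 values of the mesenchymal markers were 75.2 to 76.7 in control and 75.0 to 76.8 in anti-HOPX cells. These sums include COL1A1 and COL1A2, which differed in opposite directions. Of 5 leukocyte, 4 endothelial, 2 epithelial and 3 skeletal muscle markers found in the table, SPI1 (8.07 to 8.90) and PECAM1 (4.24 to 4.57) reached that mean. The summed log2 values of the leukocyte markers were 19.56 to 19.97 in control and 20.01 to 20.47 in anti-HOPX cells. For the muscle markers, all of them under 4 on every array, the sums were 6.82 to 7.04 and 7.48 to 7.81. The part of these markers in the proteasome results was not tested. A lower level in such bulk RNA can come from fewer cells that express a gene or from less RNA per cell, which cannot be told apart.

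Few proteasome probe sets passed, at a share near that of all tested probe sets. Of the 63 probe sets 51 had a mean over the 4 arrays of at least 4 and were tested with limma, among them at least 1 for each of the 36 genes. At an adjusted p under 0.05, PSMA6 rose and PSMD14 and PSMD9 fell in the anti-HOPX cells, and 48 probe sets did not pass. These 3 of 51 stand beside 7.66% of all 14851 tested probe sets, or 3.12% higher and 4.54% lower. None of the 3 reached a 2-fold change, beside 5.48% of all tested probe sets that passed with at least such a change. Of the 51 tested, 11 had an unadjusted p under 0.05, beside 25.3% of all tested probe sets. The calls were close to the threshold. With the arrays quantile normalised again, 2 members were higher (PSMA6 and the dimmer tested PSMG4 probe set) and 1 lower (PSMD14). With each array centred on its median, 1 was higher (PSMA6) and 0 lower. An exact permutation test of 2 arrays against 2 cannot go below p = 0.33, so every call rests on the spread that limma shares across probe sets.

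The differences of most members were also bounded. The 95% interval of limma, unadjusted, lay between -1 and 1 for 46 of the 51, beside 68.6% of all tested probe sets. The 5 others were PSMD14, PSMD9, both tested probe sets of PSMG4, and the dimmer one of PSMD13 (-0.34, interval -1.10 to 0.42). The members were brighter than most probe sets, with array medians of 11.00 to 11.23 against 7.76 to 7.79 over all tested. Their median SE was 0.14, against 0.20 over all. The part of brightness in these shares was not tested. The median absolute difference was 0.22 among the members and 0.27 over all tested probe sets. The signed median was -0.063, beside 0.0093 over all, with 32 of 51 differences below 0 beside 48.9% of all. The arrays of the forms did not overlap at 31 of the 51, beside 55.9% of all. The arrays within a form lay close together, with a median gap of 0.11 between the control and 0.17 between the anti-HOPX arrays over the members, against 0.16 and 0.25 over all tested probe sets. Of the 12 untested members the highest mean was 3.64, and the lowest mean of a tested member was 4.46.

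**Figure D1:**
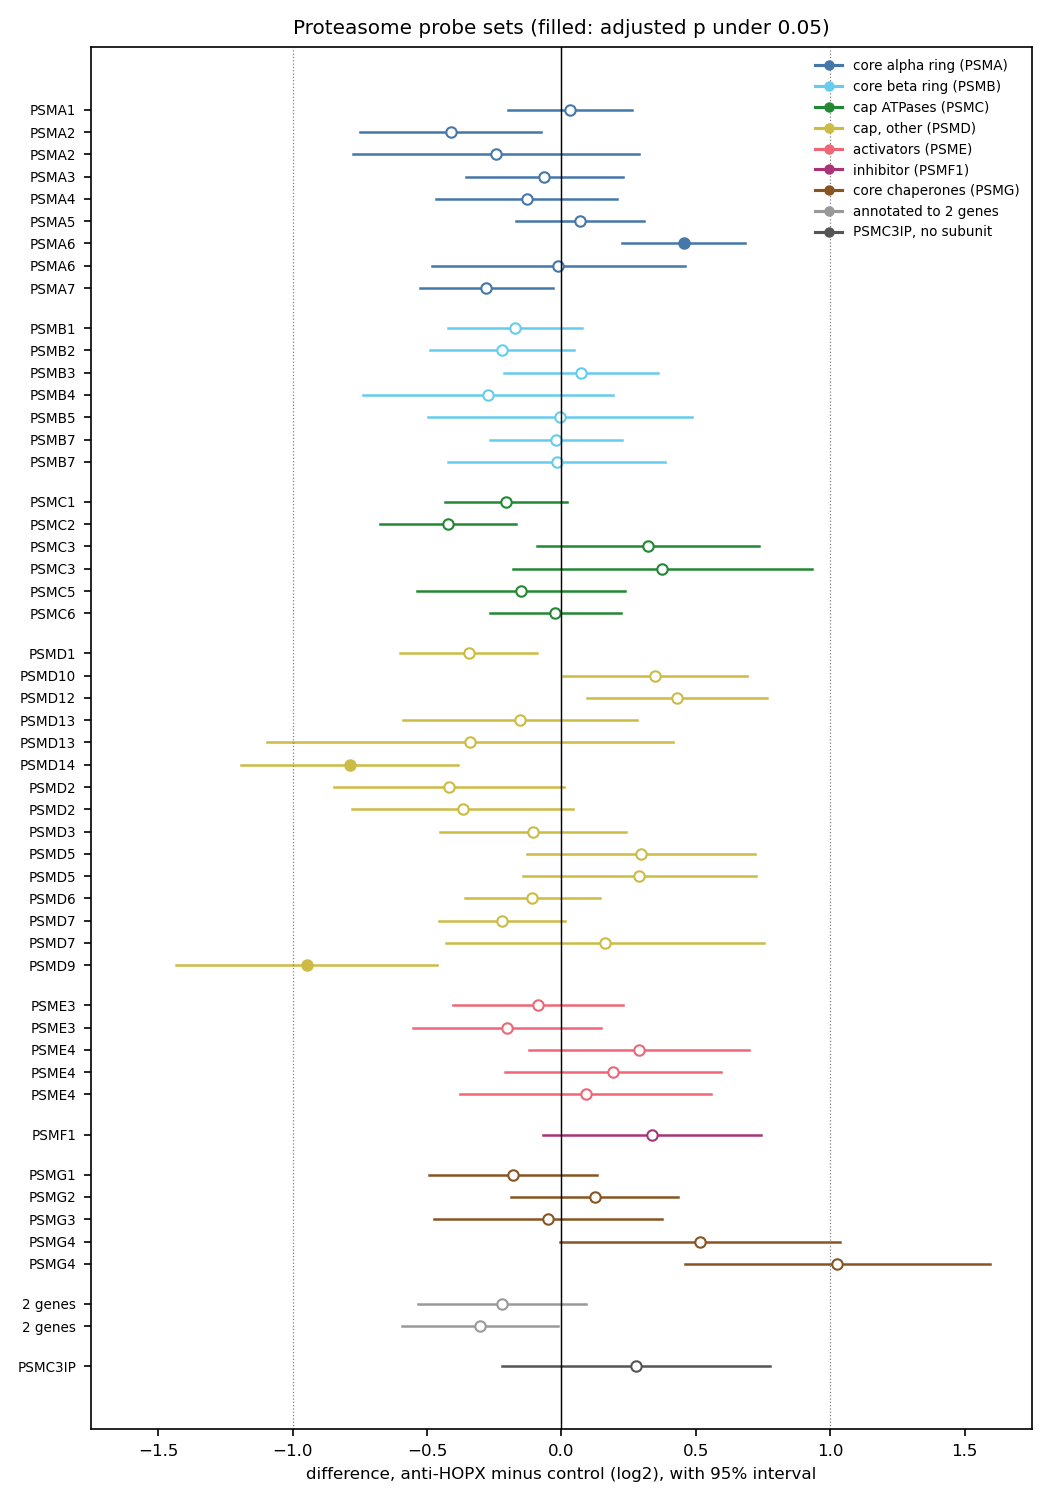
Difference between the anti-HOPX and control means (horizontal axis, log2) for the 51 tested proteasome probe sets, grouped by the part of the particle they code for, with limma's 95% interval as a bar and filled points at an adjusted p under 0.05. Most intervals cross 0 and 46 lie within the dotted lines at -1 and 1, while PSMD14 and PSMD9 lie to the left and the second probe set of PSMG4 to the right.

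In the alpha ring, 1 of 7 genes rose, 0 fell and 6 did not pass with limma. Over all genes 8.87% were called, 3.63% as higher. Of the 7, 3 had an unadjusted p under 0.05, beside 2130 of all 7691 genes with 1 probe set each. PSMA6, an alpha-ring subunit, read 13.00 and 13.02 in control cells and 13.49 and 13.45 in anti-HOPX cells. Both anti-HOPX arrays were above both control arrays, by more than the gap within either form. The difference was 0.45 (SE 0.091, adjusted p = 0.045), a rise of 1.37-fold. The second PSMA6 probe set, close to the low end of the scale, read 4.77 and 4.71 against 4.74 and 4.73 and did not differ in the same way (-0.011, interval -0.48 to 0.46). The first no longer passed without control replicate 1 (adjusted p = 0.32), control replicate 2 (0.33) or anti-HOPX replicate 1 (0.054), and it passed in 7 of 12 alternatives (adjusted p from 0.016 to 0.33).

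The other alpha subunits lay on both sides of 0. PSMA2 read 11.00 and 11.23 in control and 10.72 and 10.69 in anti-HOPX cells, a difference of -0.41 (interval -0.75 to -0.075, adjusted p = 0.13). Its forms did not overlap, and its dimmer probe set differed by -0.24 (adjusted p = 0.53). PSMA7 read 14.05 and 14.08 against 13.87 and 13.70, a difference of -0.28 (interval -0.53 to -0.033, adjusted p = 0.15), again with no overlap. PSMA1 had the smallest difference of the ring, at 13.42 and 13.43 against 13.41 and 13.50 (0.032, interval -0.20 to 0.26), and its sign turned without anti-HOPX replicate 2 (-0.013). PSMA3, PSMA4 and PSMA5 differed by -0.063, -0.13 and 0.068, and their forms overlapped.

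In the beta ring none of 6 genes passed with limma. An unadjusted p under 0.05 was found for 0 of their 7 tested probe sets, beside 25.3% of all. PSMB5 and PSMB7 carry proteolytic sites, of the chymotrypsin-like and trypsin-like kind. PSMB7 read 13.01 and 13.09 in control and 13.07 and 12.98 in anti-HOPX cells (-0.020, interval -0.27 to 0.23). Its second probe set differed by -0.018. PSMB5 was tested through a single dim probe set, at 5.81 and 5.67 against 5.81 and 5.66. The difference was -0.0043 (interval -0.50 to 0.49), with no direction of its own, since it turned to 0.088 under renewed quantile normalisation and to 0.024 after centring on the medians. Both proteolytic subunits thus overlapped between the forms.

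The structural beta subunits PSMB1, PSMB2 and PSMB4 lay below 0. PSMB4 differed most, at 13.87 and 13.70 in control and 13.77 and 13.25 in anti-HOPX cells (-0.27, interval -0.74 to 0.19, adjusted p = 0.42). Anti-HOPX replicate 2 alone was low: the difference was -0.013 without it and -0.53 without anti-HOPX replicate 1 (adjusted p = 0.047; 0.047 to 0.96 over 11 alternatives). PSMB2 read 12.08 and 12.03 against 11.79 and 11.88 with no overlap (-0.22, interval -0.49 to 0.047, adjusted p = 0.27). PSMB1 differed by -0.17 without overlap and PSMB3 by 0.073 with overlap. The catalytic subunit PSMB6, the immune subunits PSMB8, PSMB9 and PSMB10, and the interferon-inducible activators PSME1 and PSME2 were not analysed here. None of them had a probe set of its own among the members.

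Among the cap ATPases none of 5 genes passed with limma. An unadjusted p under 0.05 was found for 1, PSMC2, beside 2130 of all 7691 genes. PSMC2 read 13.39 and 13.44 in control cells and 12.92 and 13.06 in anti-HOPX cells. The forms did not overlap, and the difference was -0.42 (interval -0.68 to -0.17, adjusted p = 0.067). It passed without anti-HOPX replicate 2 (-0.49, adjusted p = 0.039), and its adjusted p ranged from 0.022 to 0.41 over 11 alternatives. PSMC3 lay on the other side of 0, at 7.98 and 8.15 against 8.35 and 8.42 (0.32, interval -0.092 to 0.74, adjusted p = 0.29). The second PSMC3 probe set differed by 0.38, also without overlap. PSMC1 (-0.21, no overlap) and PSMC5 (-0.15) were nearer to 0. PSMC6 was nearest, at 13.41 and 13.36 against 13.30 and 13.42 (-0.022), with a sign that turned to 0.0065 after centring on the medians. PSMC4 had no probe set of its own among the members and was not analysed here.

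The lid held one of the 2 falls. PSMD14 is the metalloprotease that cuts the ubiquitin chain off a substrate as it enters the particle. It read 12.60 and 12.88 in control cells and 11.79 and 12.11 in anti-HOPX cells. Both anti-HOPX arrays were below both control arrays, by more than the gap within either form. The difference was -0.79 (SE 0.16, interval -1.19 to -0.38, adjusted p = 0.048), which is 1.73-fold lower. It did not pass without control replicate 1 (-0.93, adjusted p = 0.21), control replicate 2 (-0.65, 0.33) or anti-HOPX replicate 1 (-0.63, 0.058), and it passed in 6 of 12 alternatives (adjusted p from 0.0018 to 0.33). A second PSMD14 probe set lay at 2.50 to 2.58 on all arrays and was not tested.

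PSMD7, which pairs with PSMD14 in the lid, did not pass. Its bright probe set read 13.19 and 13.24 in control and 12.96 and 13.03 in anti-HOPX cells (-0.22, interval -0.46 to 0.014, adjusted p = 0.22), with no overlap. Its dim probe set had the opposite sign, at 5.07 and 4.63 against 5.11 and 4.92 (0.16, adjusted p = 0.72), and overlapped. PSMD12, another lid subunit, was higher on both anti-HOPX arrays, at 11.69 and 11.84 against 12.07 and 12.32 (0.43, interval 0.093 to 0.76, adjusted p = 0.12). The lid subunits PSMD3 (-0.11) and PSMD13 (-0.15) overlapped between the forms while PSMD6 (-0.11) did not, and PSMD3 turned to 0.018 without anti-HOPX replicate 1. Over the 6 lid genes, 1 fell, 0 rose and 5 did not pass, beside 8.87% of all genes called and 5.24% called lower. Below 0 were 5 of 6 differences, beside 47.8% of all genes. PSMD8 and PSMD11 had no probe set of their own among the members and were not analysed here.

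PSMD1 and PSMD2 form the scaffold of the cap to which receptors and shuttle factors bind, and neither passed. PSMD1 read 13.64 and 13.63 in control and 13.21 and 13.38 in anti-HOPX cells (-0.35, interval -0.60 to -0.090, adjusted p = 0.11). PSMD2 read 10.91 and 11.08 against 10.39 and 10.77 (-0.42, interval -0.85 to 0.011, adjusted p = 0.21), and its second probe set differed by -0.37. All 3 probe sets of the scaffold, 2 of them of PSMD2, were lower on both anti-HOPX arrays. So were 4164 of all 14851 tested probe sets. The 2 tested probe sets annotated to 2 genes differed by -0.22 and -0.30 (adjusted p of 0.34 and 0.18).

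PSMD5, PSMD9 and PSMD10 carry cap symbols but are known from yeast and mammalian cells as chaperones that hold the ATPases during assembly and leave the finished particle. PSMD9 was the second member that fell. It read 10.08 and 9.70 in control and 9.08 and 8.81 in anti-HOPX cells. The forms did not overlap, and the difference of -0.95 (SE 0.19, interval -1.43 to -0.46, adjusted p = 0.048) was 1.93-fold lower. PSMD9 did not pass without control replicate 1 (-0.76, adjusted p = 0.31), control replicate 2 (-1.14, 0.20) or anti-HOPX replicate 2 (-0.81, 0.061), and it passed in 4 of 11 alternatives (adjusted p from 0.0036 to 0.31). Renewed quantile normalisation (adjusted p = 0.052) and centring on the medians (adjusted p = 0.0504) also ended the call.

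PSMD10, known as gankyrin and first described as a protein raised in liver cancer, was higher on both anti-HOPX arrays. It read 10.62 and 10.48 in control and 11.00 and 10.80 in anti-HOPX cells (0.35, interval 0.0046 to 0.69, adjusted p = 0.19). PSMD5 differed by 0.30 and 0.29 at its 2 probe sets, with adjusted p of 0.34 and 0.36. The fourth chaperone of this kind, PAAF1, read 7.48 and 7.85 against 7.97 and 8.79 (0.71, adjusted p = 0.23). Of these 4 chaperones PSMD9 was thus the only one below 0, and the only one that passed; the differences between them were not tested.

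**Figure D2:**
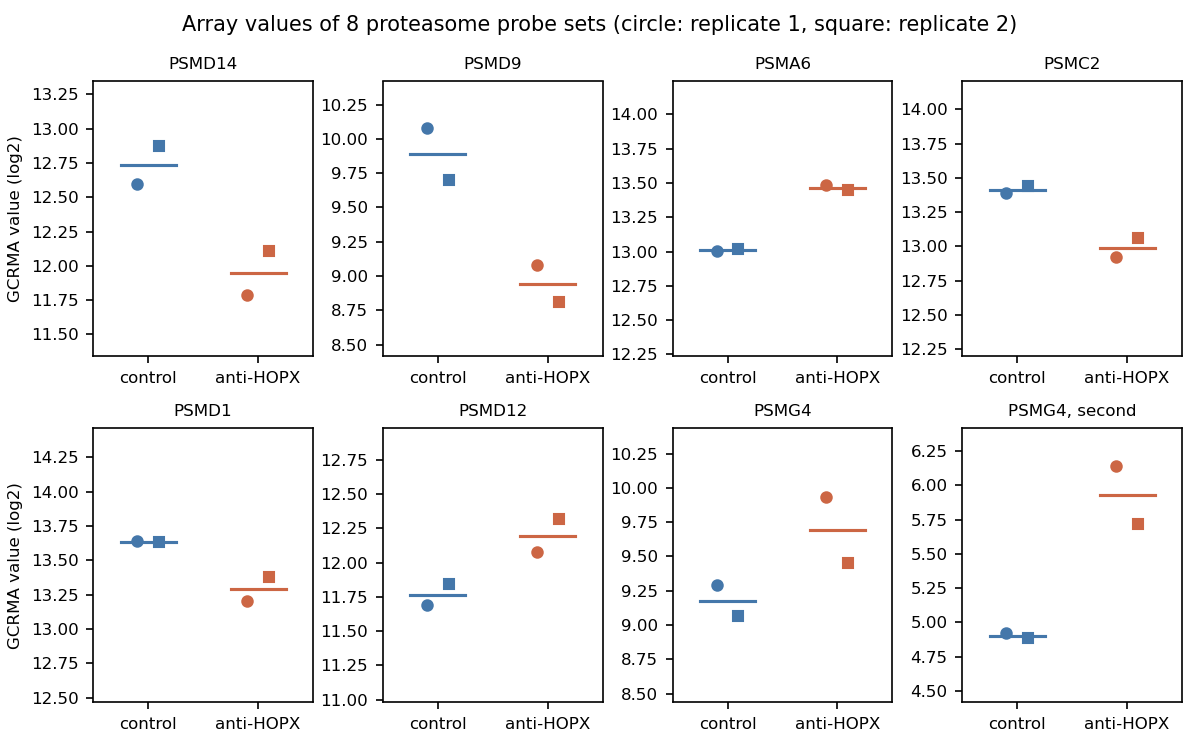
GCRMA values (vertical axis, log2; every panel spans 2 units) of 8 proteasome probe sets on the 2 control and 2 anti-HOPX arrays, with circles for replicate 1, squares for replicate 2 and lines for the means. PSMD14, PSMD9, PSMC2 and PSMD1 are lower on both anti-HOPX arrays, and PSMA6, PSMD12 and both probe sets of PSMG4 are higher.

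The chaperones of the core particle gave no call with limma in 4 genes. Beside 25.3% of all tested probe sets, 1 of their 5 had an unadjusted p under 0.05. That probe set belonged to PSMG4, which acts with PSMG3 in forming the alpha ring. It read 4.92 and 4.89 in control and 6.14 and 5.72 in anti-HOPX cells (1.03, interval 0.46 to 1.59, adjusted p = 0.056), the largest difference among the members. The brighter PSMG4 probe set read 9.29 and 9.06 against 9.93 and 9.45 (0.52, interval -0.0061 to 1.04, adjusted p = 0.20). Both probe sets were higher on both anti-HOPX arrays. Under renewed quantile normalisation the dimmer one passed with limma and the brighter one did not (adjusted p = 0.21). The brighter one passed without anti-HOPX replicate 2 (0.75, adjusted p = 0.049; 0.049 to 0.65 over 11 alternatives). Another probe set, at 3.18 to 3.90, was not tested.

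The partner PSMG3 read 10.34 and 10.25 in control and 10.44 and 10.06 in anti-HOPX cells (-0.051, interval -0.47 to 0.37). The anti-HOPX arrays lay on both sides of the control arrays, and the sign turned to 0.14 without anti-HOPX replicate 2. PSMG1 and PSMG2, which work as a pair, differed by -0.18 and 0.12 (adjusted p of 0.43 and 0.59). PSMG1 read 11.69 and 11.49 against 11.39 and 11.44, without overlap. POMP, the chaperone of the beta ring, differed by -0.23 (adjusted p = 0.47).

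Of the activators and the inhibitor of the core, none passed with limma. None had an unadjusted p under 0.05, beside 25.3% of all tested probe sets. PSME3, the activator of the nuclear proteasome, read 12.71 and 12.67 in control and 12.46 and 12.74 in anti-HOPX cells (-0.086, interval -0.40 to 0.23), and its sign turned without anti-HOPX replicate 1 (0.051). The dimmer tested PSME3 probe set read 9.32 and 9.35 against 9.11 and 9.16 (-0.20, adjusted p = 0.43), without overlap. PSME4, a large activator linked to histone degradation, read 10.46 and 10.68 against 10.70 and 11.02 (0.29, interval -0.12 to 0.70, adjusted p = 0.33). Its other 2 probe sets differed by 0.19 and 0.090. PSMF1 read 8.86 and 8.67 against 9.19 and 9.02 (0.34, interval -0.070 to 0.74, adjusted p = 0.27), without overlap. PSMC3IP differed by 0.28 (adjusted p = 0.45).

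With 1 probe set per gene, the brightest, the core and the cap can be set side by side. The 13 core genes had a median difference of -0.063, a range of -0.41 to 0.45 and a median absolute difference of 0.13. The 16 genes with cap symbols had a median of -0.15, a range of -0.95 to 0.43 and a median absolute difference of 0.31. Over all 7691 genes the median was 0.018 and the median absolute difference 0.27. Below 0 were 9 of the 13 core genes and 12 of the 16 cap genes, beside 47.8% of all genes. The arrays of the forms did not overlap at 5 of the 13 and 12 of the 16, beside 58.2% of all genes. Without its 3 chaperones, the cap had 11 of 13 differences below 0, and PSMC3 and PSMD12 above. The core genes were the brighter, with array medians of 13.25 to 13.41 against 11.93 to 12.36 for the cap genes. Their median SE was 0.11, against 0.14 for the cap. These are counts over genes measured on the same 4 arrays. Neither the difference between core and cap nor the part of brightness in it was tested.

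The 2 arrays of a form differed in this respect. Relative to each gene's mean over the 4 arrays, the median of the 16 cap genes was 0.054 and 0.11 in control cells and -0.16 and 0.027 in anti-HOPX cells. Anti-HOPX replicate 1 was thus the low array for the cap. For the 13 core genes the same medians were 0.074 and 0.051 in control and 0.034 and -0.065 in anti-HOPX cells, where replicate 2 was the lower.

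**Figure D3:**
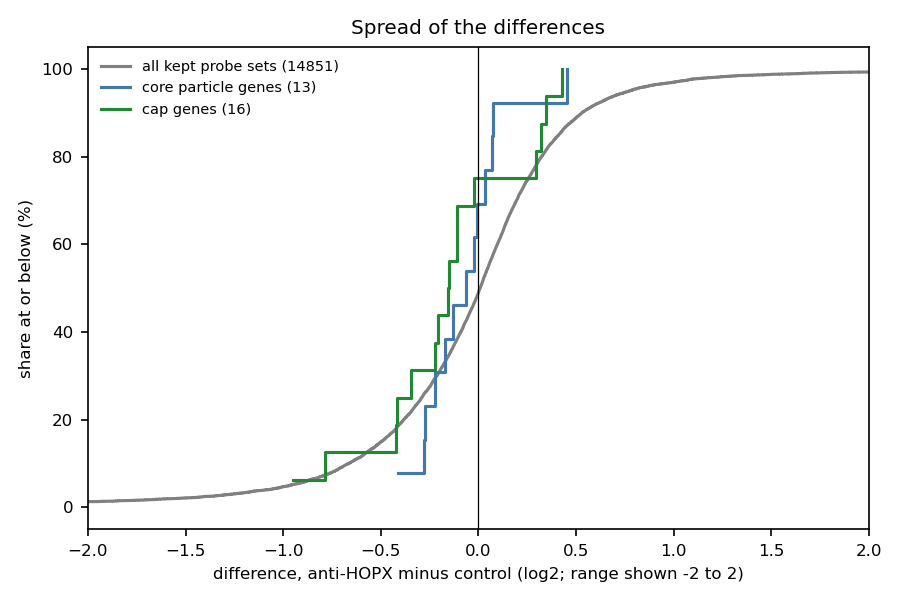
Cumulative share of genes or probe sets (vertical axis, %) at or below a given difference, anti-HOPX minus control (horizontal axis, log2, shown from -2 to 2), for the 13 core genes, the 16 cap genes and all 14851 tested probe sets. The core curve is the steeper, with all 13 genes between -0.41 and 0.45, and the cap curve reaches -0.95.

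Where a gene had several tested probe sets, they mostly gave the same sign. This held for 9 of 11 such genes, with PSMB7, PSMD5, PSMD2 and PSMC3 differing by 0.054 or less between probe sets. The signs differed for PSMA6 and PSMD7, in both cases through a probe set with values near 5. PSMD14 and PSMD9, the genes that fell, had a single tested probe set each, and the locus of PSMD14 overlaps that of a second protein-coding gene in the RefSeq gene table, as do those of PSMA6 and PSMG4. The 36 genes lie on 20 chromosomes or scaffolds in that table, and no 2 of them are adjacent.

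Genes that work with the proteasome were read from 6 lists with 96 symbols, of which 72 were measured. Of these 72 genes 3 rose and 4 fell, beside 8.87% of all genes called with 1 probe set each (3.63% higher and 5.24% lower). Their median difference was -0.0051, with 36 on each side of 0. An unadjusted limma p under 0.05 was found for 24 of the 72, and for 2130 of all 7691 genes.

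Of 13 ubiquitin receptors, deubiquitinases and partners of the particle, 0 passed with limma, and 3 had an unadjusted p under 0.05. The chaperones PAAF1 and POMP were counted among these partners. The ubiquitin receptor ADRM1 differed by -0.14 and the deubiquitinases USP14 and UCHL5 by -0.21 and 0.24. The stress-induced binding protein ZFAND2A read 12.62 and 12.86 in control and 11.49 and 12.22 in anti-HOPX cells (-0.88, adjusted p = 0.10). ECPAS, which tethers cap and core, read 8.35 and 8.12 against 8.91 and 8.76 (0.60, adjusted p = 0.10). Of 8 genes of ubiquitin supply 0 passed with limma, and 3 had an unadjusted p under 0.05. These were the conjugating enzymes UBE2D1 (0.46), UBE2N (-0.38) and UBE2L3 (-0.34), with adjusted p of 0.099, 0.066 and 0.12. Both counts of 3 stand beside the 2130 of all 7691 genes with such an unadjusted p. Both counts of 0 stand beside 8.87% of all genes called.

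Of 14 shuttle factors and partners of the segregase VCP, which delivers unfolded substrates, UBXN4 fell and 13 did not pass. Over all genes 8.87% were called, 5.24% as lower. An unadjusted limma p under 0.05 was found for 3 of the 14, beside 2130 of all 7691 genes. Below 0 were 11 of the 14, beside 47.8% of all genes. UBXN4, which anchors VCP at the endoplasmic reticulum, read 10.25 and 10.18 in control and 9.47 and 9.56 in anti-HOPX cells (-0.70, SE 0.13, adjusted p = 0.039). Its 2 other tested probe sets differed by -0.81 and -0.35 (adjusted p of 0.057 and 0.31). VCP itself differed by -0.047. The shuttle factor RAD23B read 10.81 and 10.82 against 11.27 and 11.35 (0.49, adjusted p = 0.065). NPLOC4 (-0.43) and FAF1 (0.38) did not pass either.

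Among 15 measured regulators of proteasome genes, 1 rose, 1 fell and 13 did not pass, beside 8.87% of all genes called. An unadjusted limma p under 0.05 was found for 5 of the 15, beside 2130 of all 7691 genes. Below 0 were 7 of the 15, beside 47.8% of all genes. NFE2L1, the main activator of proteasome genes when the particle is short, read 10.97 and 11.30 in control and 10.59 and 10.73 in anti-HOPX cells. Both anti-HOPX arrays were lower, and the difference of -0.48 did not pass (adjusted p = 0.13), nor did that of the second probe set (-0.54, adjusted p = 0.23). NFE2L2, its relative that drives antioxidant genes, read 11.40 and 11.35 against 10.79 and 10.78 (-0.59, SE 0.11, adjusted p = 0.041), and its second probe set passed too (-0.70, adjusted p = 0.042). BACH1, a repressor that competes with NFE2L2 for the same sites, read 7.92 and 8.04 against 9.0 and 8.83 (0.94, SE 0.16, adjusted p = 0.033). Its 2 dimmer probe sets differed by 0.38 and 0.67 and did not pass (adjusted p of 0.30 and 0.15). MAFF (-1.02, adjusted p = 0.16) and FOXO4 (0.47, adjusted p = 0.19) did not pass.

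Of 11 antioxidant response targets 2 fell and 9 did not pass, beside 8.87% of all genes called. An unadjusted limma p under 0.05 was found for 4 of the 11, beside 2130 of all 7691 genes. Below 0 were 7 of the 11, beside 47.8% of all genes. Glutathione reductase, GSR, read 9.08 and 8.88 in control and 3.78 and 3.36 in anti-HOPX cells. It reached the mean of 4 required for testing only through its control arrays. With array values under 4 raised to 4, GSR was lower by at least 31.5-fold. The malic enzyme ME1 read 11.01 and 10.76 in control and 9.69 and 8.75 in anti-HOPX cells (-1.66, adjusted p = 0.040). Haem oxygenase HMOX1 differed by -0.54 (adjusted p = 0.052), PGD by -0.37 (adjusted p = 0.077) and the glutamate-cysteine ligase subunits GCLM and GCLC by -0.37 and 0.16 (adjusted p of 0.31 and 0.70). Of 12 genes of MHC class I peptide supply, which include peptidases and IRF1 beside the peptide transporter, 2 rose and 10 did not pass. Over all genes 8.87% were called, 3.63% as higher. In this list 6 of the 12 had an unadjusted limma p under 0.05, beside 2130 of all 7691 genes. Below 0 lay 3 of the 12, beside 47.8% of all genes. Its median difference was 0.48, against 0.018 over all genes. The list was chosen with earlier results of these data known, and its median was not tested. IRF1, the factor that induces immune subunits in mammals, read 8.81 and 9.17 against 10.07 and 9.98 (1.04, adjusted p = 0.029), and the peptide transporter subunit TAP2 8.31 and 8.37 against 9.27 and 9.30 (0.95, adjusted p = 0.024). The peptidase ERAP1 (1.03), B2M (0.73) and the peptidase THOP1 (-0.96) had adjusted p of 0.052, 0.078 and 0.15. Of the 7 called list genes GSR alone passed without control replicate 1 and without control replicate 2, where the adjusted p of the 6 others was 0.24 to 0.32 at its highest.

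**Figure D4:**
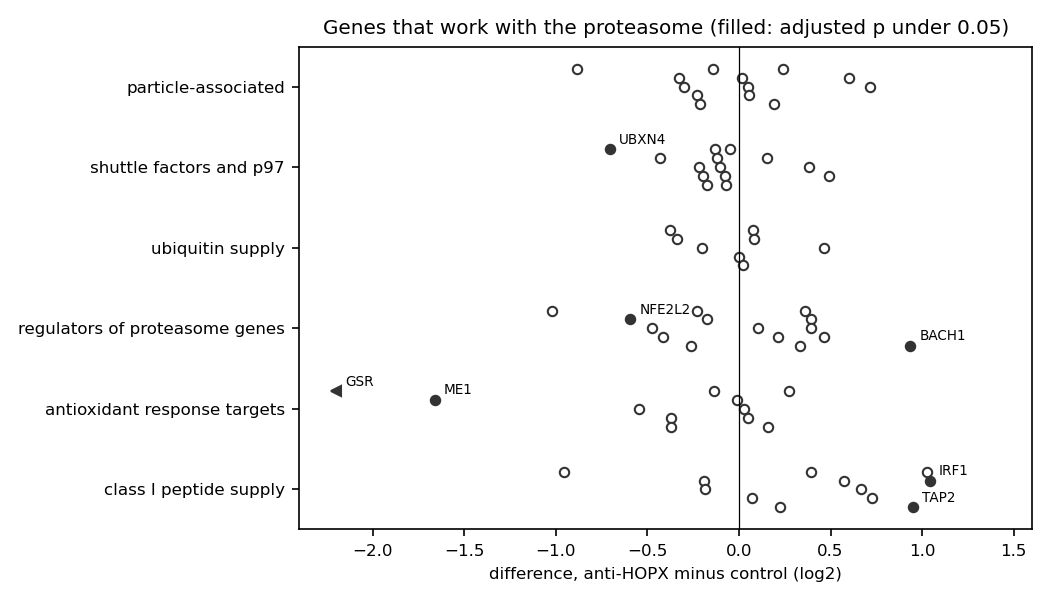
Difference between the anti-HOPX and control means (horizontal axis, log2) for the 72 measured genes of 6 lists of proteasome partners, regulators and related pathways, 1 point per gene, filled at an adjusted p under 0.05. The arrowhead marks GSR, which lies beyond the axis at -5.41. The lists of the particle and of ubiquitin supply hold no filled point, beside 8.87% of all genes called.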

How the data were processed

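The deposited table holds log2 values, 1 per probe set and array, made by the authors before deposit. Per the submitters' processing notes, GCRMA and Partek 6.4 were used; their roles, the GCRMA version and any filter are not stated in the sources used here. GCRMA compresses dim probe sets and removes overall shifts in RNA amount between arrays.

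After leaving out 96 Affymetrix control probe sets, those with a mean of at least 4 over the 4 arrays (14851) were tested in R 4.3.3 by limma 3.58.1 (lmFit and then eBayes with an intensity trend, no replicate block, 2 residual and 3.54 prior degrees of freedom). Tests are two-sided, with Benjamini-Hochberg adjustment over all 14851. Intervals are unadjusted 95% intervals. Symbols come from the platform annotation, updated through RefSeq gene identifiers (GRCg7b), which held 98.8% of those of probe sets with 1 gene. A gene is represented by its brightest probe set.

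Arrays were grouped by sample title. The number of arrays limits the precision. The members and lists were chosen with earlier results of these data known. Named with array values were members that passed, in each class the genes with the 2 largest and the smallest differences, genes whose probe sets differ in sign and, after their values were seen, further members, so that every gene is accounted for. From each list, up to 6 passing genes and up to 3 others were named by size of difference, and further ones for their role. Alternatives were other filters, variance models, normalisations and probe set choices, a 2-fold minimum, a replicate block and leaving out each array. The procedure was tested on simulated data. Sequence features of the members were not analysed here.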

Additional observations from a re-analysis of the deposited data

How the results depend on the processing

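The member calls depended on the processing. Filters, the intensity trend, the replicate block, probe set choices and the 2-fold minimum cannot change the difference of a single probe set. As reported, 1 member probe set was called higher and 2 were called lower. Without a filter on low values 0 were higher and 0 lower, as without an intensity trend and with a 2-fold minimum. Renewed quantile normalisation gave 2 higher and 1 lower, and centring on the medians 0 lower. Leaving out probe sets ending in _x_at, _s_at or _a_at gave 1 lower of 24 members tested. That choice removed PSMD9, whose only tested probe set ends in _s_at. With a mean of at least 6, and with 1 probe set per gene, PSMA6, PSMD14 and PSMD9 were called and no other member. Leaving out 1 array gave 0 to 3 higher and 0 to 3 lower members, with 0 in both directions without either control array. Over all tested probe sets (464 higher, 674 lower) the counts without a filter were 80 and 194. Without 1 array they ran from 34 to 728 higher and from 108 to 1006 lower, the lowest without control replicate 2. The median difference of the members (-0.063) was -0.020 without a filter, -0.086 with a mean of at least 6 or 1 probe set per gene, -0.035 after centring and -0.035 without the _x_at, _s_at and _a_at probe sets. It ran from -0.077 to -0.013 without 1 array. Without those probe sets 21 of the 24 tested members had an interval within -1 to 1, and 14 of the 24 had arrays that did not overlap. As reported, these counts were 46 and 31 of 51, beside 68.6% and 55.9% of all tested probe sets.

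Of the list genes (3 higher, 4 lower), 0 were higher and 1 lower without a filter, 1 was lower without an intensity trend, and 5 were higher with a mean of at least 6, after centring or with 1 probe set per gene. Leaving out 1 array gave 0 to 6 higher and 1 to 10 lower.

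The arrays of the forms share replicate numbers, but no label says that a number marks a shared culture or day. Over the tested probe sets the deviations of same-numbered arrays correlated at 0.25. With the replicate block, 3 members were higher and 4 lower, 1149 and 1549 probe sets in all, and 10 and 11 list genes. The 3 members called as reported were among the 7 called with the block.

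Of 46 single genes or probe sets, 8 changed sign in at least 1 alternative, all members that did not pass. PSMC6 turned to 0.0065 after centring. The dimmer PSMA6 probe set turned to 0.087 under renewed quantile normalisation and 0.017 after centring, and PSMB5 to 0.088 and 0.024. Leaving out 1 array turned these and 5 others: PSMC6 ranged from -0.084 to 0.039, PSMB5 from -0.080 to 0.071, the dimmer PSMA6 probe set from -0.044 to 0.022, PSMA1 from -0.013 to 0.077, PSMD3 from -0.23 to 0.018, PSME3 from -0.22 to 0.051, PSMG3 from -0.24 to 0.14 and the dimmer PSMD7 probe set from -0.057 to 0.38. The causes were not tested. Fits without 1 array leave a form with a lone array, assumed to vary like the others.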

Other observations

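The genes next to the members that passed, looked up after the results were seen, did not share their direction throughout. In the order of protein-coding genes of the RefSeq table, PSMD9 lies between HPD, an enzyme of tyrosine breakdown, and WDR66. HPD read 7.40 and 7.21 in control and 5.49 and 5.32 in anti-HOPX cells, a difference of -1.90 on the log2 scale (SE 0.20, limma adjusted p = 0.0080). WDR66 read 5.74 and 5.56 against 6.24 and 5.28, a difference of 0.11 (limma adjusted p = 0.88). Its anti-HOPX arrays lay on both sides of the control arrays. One gene farther on each side, SETD1A differed by -0.49 (limma adjusted p = 0.24) and BCL7A by -0.73 (0.081). None of these 4 genes overlaps PSMD9 in the table. Beside PSMD14, RBMS1 differed by 0.0050 (limma adjusted p = 0.99) and TANK, one gene farther, by -0.56 (0.13). Beside PSMA6, NFKBIA differed by -0.26 (limma adjusted p = 0.45) and PRORP, 2 genes away on the other side, by 0.14 (0.63). These neighbours share the same 4 arrays, and no test of neighbourhood was made.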
